A study of Mus musculus with 6 samples.

Results

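Outer segment disc and retinal dystrophy genes were followed as a set of 8 photoreceptor genes, Prph2, Rom1, Rp1, Prom1, Tulp1, Aipl1, Rpgrip1 and Rpgr, in retinas of WT mice and of mice that lack Trim9. They were taken by symbol from the annotation of the arrays, as every probe set that names 1 of these genes and no other. A probe set is a group of short oligonucleotides that together read 1 transcript. This gave 13 of 45037 probe sets and 8 of 18193 genes. Rp1 and Aipl1 had 2 probe sets each, Rpgrip1 had 4 and the other 5 genes had 1. Where a gene had several, the brightest probe set by its mean over the 6 arrays stood for it and the others were examined beside it. The 6 arrays came from adult retina, 1 array per animal. The 3 WT mice were littermates of the 3 Trim9 KO mice. The KO allele has no exon 1 of Trim9, removed by Cre recombinase after a cross to CMV-cre mice, whose promoter is not restricted to the retina. Neither strain, exact age nor sex was given for the animals, and no treatment was named apart from a washing step whose description speaks of embryos.

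A photoreceptor captures light in its outer segment, a modified cilium packed with membrane discs. The discs are shaped at the base of the outer segment and held open at their rims by tetraspanins, while proteins made in the inner segment reach them through the narrow connecting cilium. Mutations in the human counterparts of the 8 genes cause retinitis pigmentosa, Leber congenital amaurosis, and cone-rod or macular dystrophies. Rods outnumber every other cell type of the mouse retina. In RNA of whole retina, fewer photoreceptors and less RNA per photoreceptor cannot be told apart.

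The deposited values are linear intensities, which were read as log2(intensity + 16) and compared between genotypes with limma. Array medians ran from 218 to 807 although every array had been scaled to the same trimmed mean. The median log2 fold change (Trim9 KO over WT) of all probe sets was 0.18. It was 0.0009 for the 22518 probe sets with a mean above the median, where the brightest probe sets of the 8 genes belong. The fold changes of single genes are to be read against these medians. Trim9 KO replicate 1 was the least like the others, with a mean Pearson's r of 0.50 across probe sets with the other 5 arrays, against 0.63 to 0.74 for the rest. The ratio of 3' over 5' signal of Actb, which is large when RNA is degraded or shortened, was 19.8, 9.73 and 3.42 in WT replicates 1 to 3 but 2.80, 90.6 and 85.7 in Trim9 KO replicates 1 to 3. For Gapdh the difference of 3' and 5' signal was 8.10, 6.28 and -0.14 on the log2 scale in WT and 6.91, 7.17 and 7.29 in Trim9 KO replicates 1 to 3. WT replicate 3 was thus low by both genes, while Trim9 KO replicate 1 was low by Actb alone. By Xist and the Y-linked Eif2s3y, replicate 3 of each genotype was female and the other 4 animals were male. The 4 probe sets of Trim9 itself had log2 fold changes of -1.81 (standard error 0.99, the brightest), -2.48 (standard error 1.26), -0.77 (standard error 0.95) and -0.58 (standard error 1.01), and the genotypes overlapped for the latter pair. Of 6 rod genes measured, the lowest intensity on any array was 98308 for the transducin subunit Gnat1, 73358 for the transcription factor Nrl, 13419 for arrestin (Sag), 12902 for the channel subunit Cnga1, 10544 for Pde6b and 5777 for Pde6g, so that rod RNA was present in all 6 animals.

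None of the 8 genes differed between WT and Trim9 KO retinas beyond the spread between animals. In 5 of them the KO mean was lower (Rom1, Rp1, Prom1, Tulp1 and Aipl1) and in 3 it was higher (Prph2, Rpgrip1 and Rpgr), with log2 fold changes from -1.49 for Tulp1 to 1.41 for Rpgr. By their brightest probe sets, the 8 genes varied to very different degrees among the 6 animals. Tulp1 read 252-fold and Rom1 168-fold higher on its highest array than on its lowest, whereas Aipl1 differed by 1.51-fold. The lowest Tulp1 reading, on WT replicate 1, lay above 44.3% of probe sets there and was not shown to be above background. The ratio of the readings was 3970 for Prph2, whose low readings were not shown to be above background.

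**Figure D1:**
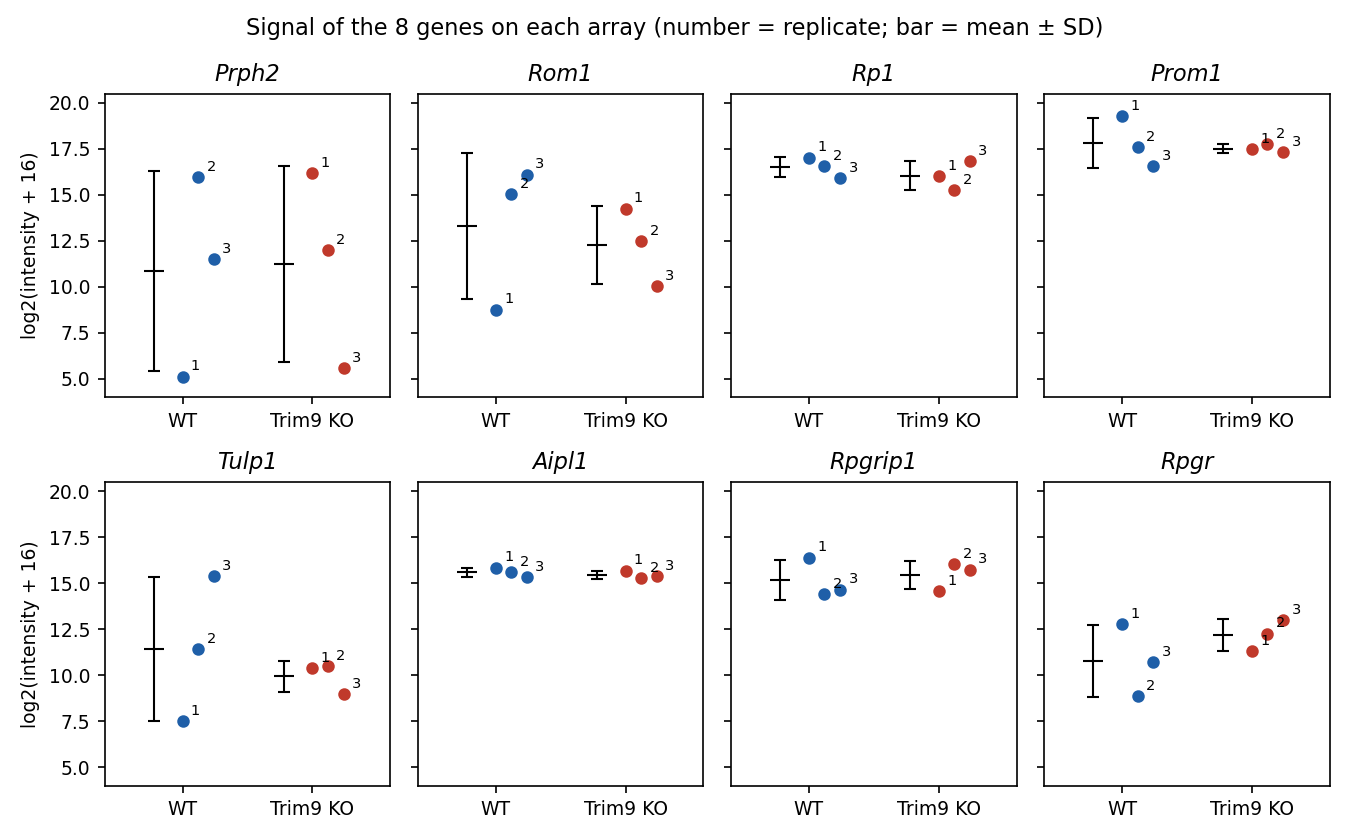
Signal of the 8 genes, each read by its brightest probe set, as log2(intensity + 16) (y axis) by array (x axis, blue for the 3 WT and red for the 3 Trim9 KO animals), with the replicate number beside each point and the mean ± SD as a black bar. WT and KO points overlap in every panel, and Prph2 spans 18.5 to 73616 in intensity while Aipl1 stays between 39129 and 59009.

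Among the disc rim proteins, Prph2 (chr17:46910478-46924933, RefSeq positions on GRCm38.p6 here and for the genes that follow) encodes the tetraspanin peripherin 2, which bends the membrane at the rim. Its intensity was 18.5, 63712 and 2885 on WT replicates 1, 2 and 3. On Trim9 KO replicates 1, 2 and 3 it was 73616, 4031 and 32.3. Each genotype thus held 1 animal with a bright signal, 1 with an intermediate signal and 1 with a very low signal. The rank of the probe set within its own array, which no scaling moves, went the same way: Prph2 lay above 13.1% of probe sets on WT replicate 1 and 15.4% on Trim9 KO replicate 3, against 83.9% to 99.5% on the other arrays. The means were 10.86 ± 5.45 in WT and 11.25 ± 5.32 in Trim9 KO (log2 intensity, mean ± SD, n = 3 each) and the log2 fold change was 0.39 (standard error 2.77, 95% interval -5.69 to 6.48). The exact permutation test over the 6 arrays, two-sided, gave p = 0.7, where 0.1 is the smallest p that 3 animals against 3 allow.

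Rom1 (chr19:8927382-8929356), the tetraspanin that assembles with peripherin 2 at the rim, had intensities of 415, 33774 and 69818 in WT replicates 1, 2 and 3. In Trim9 KO replicates 1, 2 and 3 it had 19475, 5753 and 1045. The lowest animals were the same as for Prph2, WT replicate 1 and then Trim9 KO replicate 3. The genotypes overlapped, and their log2 fold change was -1.03 (standard error 1.79, 95% interval -4.95 to 2.89, exact permutation p = 0.7). It was 0.37 without WT replicate 3, 0.076 without Trim9 KO replicate 3 and -3.30 without WT replicate 1.

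Prom1 and Rp1 act where discs are formed and stacked. Prom1 (chr5:43993621-44102047) encodes a membrane glycoprotein of the nascent discs, and its intensities were 636995, 196476 and 96944 in WT against 181652, 221897 and 160850 in Trim9 KO replicates 1, 2 and 3. WT replicate 1 was high, WT replicate 3 was low, and all 3 KO animals lay between them. The log2 fold change was -0.30 (standard error 1.01, 95% interval -2.52 to 1.91, exact permutation p = 0.8), and 0.43 without WT replicate 1. Rp1 (chr1:4115673-4409266) encodes a microtubule protein of the outer segment axoneme that keeps discs aligned. Its intensities were 131927, 95209 and 61770 in WT and 66858, 38537 and 117521 in Trim9 KO replicates 1, 2 and 3, so that the highest array was WT and the lowest was KO, with the genotypes interleaved between. The log2 fold change was -0.45 (standard error 0.95, 95% interval -2.54 to 1.63, exact permutation p = 0.5).

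Tulp1 (chr17:28351515-28365216), a tubby-like protein that helps to carry rhodopsin and other proteins towards the outer segment, had the lowest fold change of the set. It read 168, 2751 and 42303 in WT replicates 1, 2 and 3 and 1305, 1428 and 492 in Trim9 KO replicates 1, 2 and 3. All 3 KO animals lay within the range of the WT animals, and the lower KO mean rested on WT replicate 3. The log2 fold change was -1.49 with all arrays (standard error 1.64, 95% interval -5.10 to 2.12, exact permutation p = 0.7) and 0.47 without WT replicate 3. Without WT replicate 1 it was -3.45. WT replicate 1 and Trim9 KO replicate 3 were again the lowest arrays.

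Aipl1 (chr11:72028717-72042460) encodes a chaperone that the cone and rod phosphodiesterase needs for its folding and assembly. By its brightest probe set it was the steadiest gene of the set. It read 59009, 49903 and 41710 in WT replicates 1, 2 and 3 and 52562, 39129 and 42841 in Trim9 KO replicates 1, 2 and 3. The means were 15.60 ± 0.25 in WT and 15.44 ± 0.22 in Trim9 KO (log2 intensity, mean ± SD, n = 3 each). The log2 fold change of -0.16 (exact permutation p = 0.5) kept its sign in all 16 alternative settings. The filter, block, limma's trend and sex could not move it. Its size was -1.22 with the mean of the Aipl1 probe sets and -0.036 without WT replicate 1. Its limma interval, -2.12 to 1.80, is wide because limma sets the error of a probe set partly from the spread of all the others.

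At the connecting cilium, Rpgrip1 (chr14:52104241-52161339) holds the GTPase regulator Rpgr in place. Rpgrip1 read 86303, 21574 and 25756 in WT and 24361, 66826 and 54416 in Trim9 KO replicates 1, 2 and 3. The top array was WT replicate 1 and the lowest was WT replicate 2, so that the KO animals lay inside the WT range. The log2 fold change was 0.29 (standard error 1.00, 95% interval -1.90 to 2.49, exact permutation p = 0.9).

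Rpgr (chrX:10158216-10216795) had the highest fold change of the set. Its intensities were 7051, 446 and 1663 in WT and 2528, 4874 and 8226 in Trim9 KO replicates 1, 2 and 3. Every KO animal was above WT replicates 2 and 3, whereas WT replicate 1 was above Trim9 KO replicates 1 and 2. The lowest Rpgr reading, 446 on WT replicate 2, lay above 41.8% of probe sets there and was not shown to be above background. The means were 10.78 ± 1.97 in WT and 12.19 ± 0.85 in Trim9 KO (log2 intensity, mean ± SD, n = 3 each). The log2 fold change was 1.41 (standard error 1.15, 95% interval -1.13 to 3.94, exact permutation p = 0.3). It was positive in all 16 alternative settings, but the filter, block, limma's trend, sex and averaging over probe sets could not move it. It was 0.44 without WT replicate 2 and 2.41 without WT replicate 1. Rpgr lies on the X chromosome. The 2 females were WT replicate 3 (1663) and Trim9 KO replicate 3 (8226). With 1 female in each genotype, sex and genotype were balanced.

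**Figure D2:**
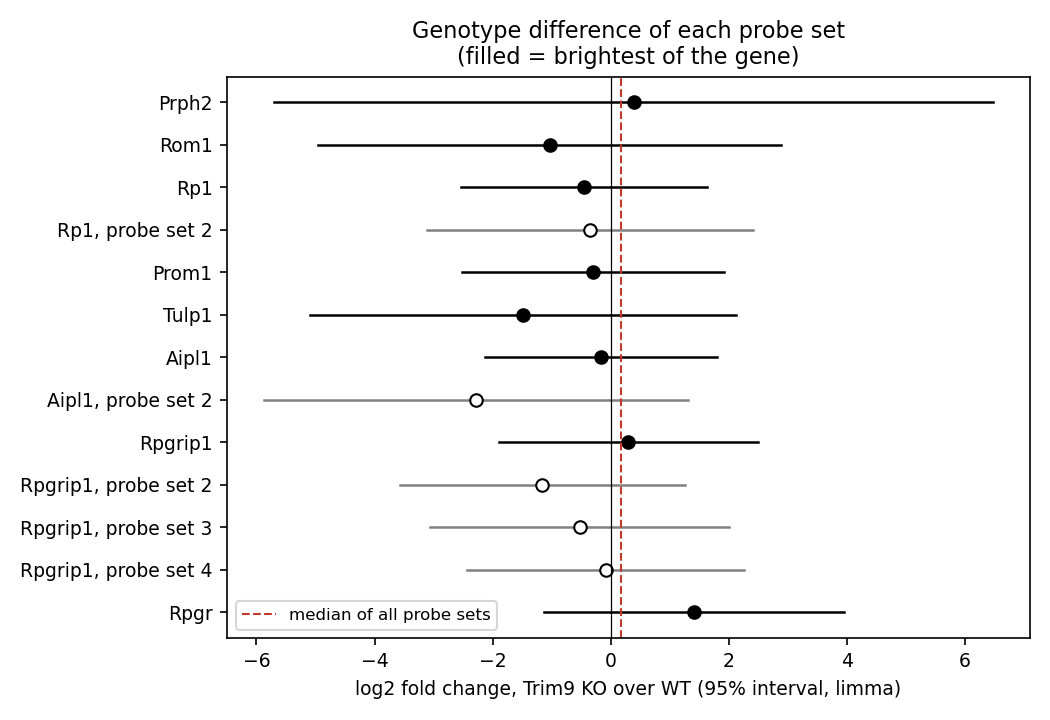
Log2 fold change, Trim9 KO over WT (x axis), of the 13 probe sets (y axis) with the 95% interval from limma; filled points are the brightest probe set of a gene, open points its other probe sets, and a dashed red line stands at the median over the whole table (0.18). Every interval includes 0, and that of Prph2 is the widest.

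Across the set, 0 of 8 genes passed an adjusted p of 0.05 in limma (adjusted p = 0.999 for each), as did 0% of the 45037 probe sets. Without adjustment, 0 of the 13 probe sets had p under 0.05 against 2.88% of the whole table, and 0 of the 8 genes against 2.56% of genes. WT and KO arrays overlapped for all 8 genes, whereas they did not overlap for 8.24% of all genes, with all KO arrays below the WT arrays in 2.89% and above them in 5.35%. A log2 fold change under -1 was found for Rom1 and Tulp1 (13.5% of genes) and over 1 for Rpgr (20.6%), which makes 3 of 8 past 1 in either direction against 34.1% of genes. A lower KO mean in 5 of 8 genes compares with 44.8% of all genes, and with 52.5% of the 9096 genes whose mean signal lay above the median, where all 8 belong. By probe sets it was 10 of 13, against 43.6%. The median log2 fold change of the 8 genes was -0.23, against 0.14 for all genes and 0.0009 for the 22518 probe sets above the median signal. It turned to 0.21 without WT replicate 3, when 3 genes had a lower KO mean.

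**Figure D3:**
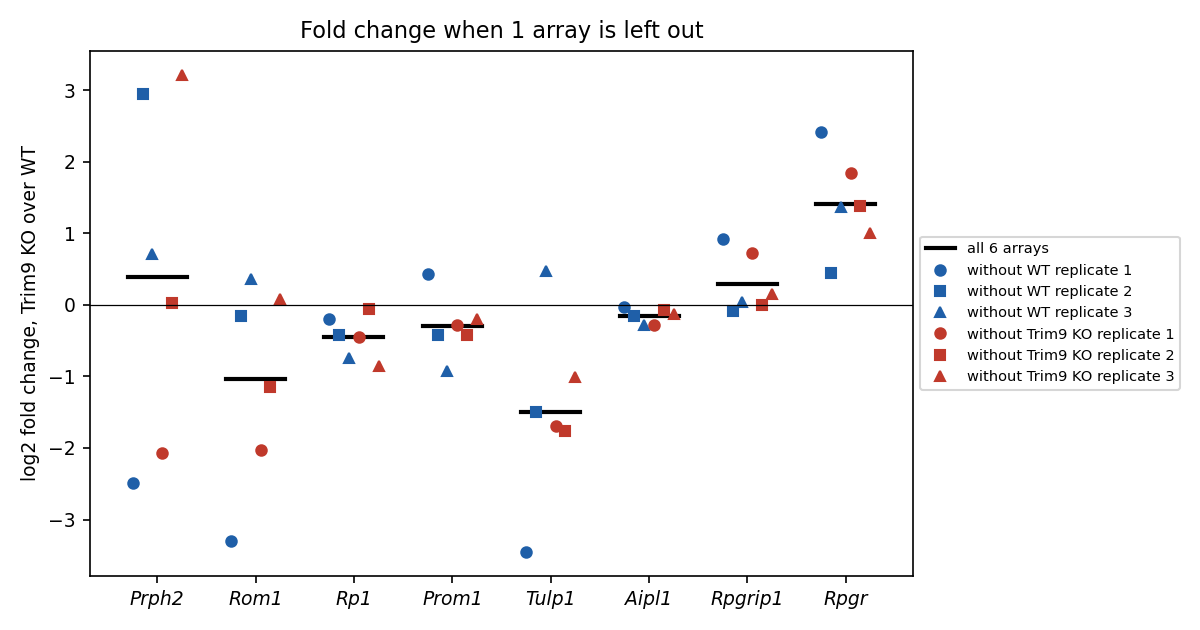
Log2 fold change between Trim9 KO and WT on the y axis for each gene (x axis), with all 6 arrays (black line) and without each array in turn (points, blue for a WT and red for a KO array left out, shape by replicate). Prph2 moves between -2.48 and 3.22, whereas Rp1 and Aipl1 stay below 0 and Rpgr above 0 in every case.

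The set held both ends of the spread seen on these arrays. The SD of log2 intensity within a genotype, pooled over WT and Trim9 KO, was 5.39 for Prph2, the highest of all 18193 genes, with 2 readings not shown to be above background. Rom1 (3.18) ranked 46 and Tulp1 (2.84) ranked 178, so that 0.973% of genes or fewer varied more. At the other end, 99.3% of genes varied more than Aipl1 (0.23) and 83.6% more than Rp1 (0.69). This did not hold for their dimmer probe sets. The SD of that of Aipl1 was 2.82, with 1.01% of genes varying more, and that of Rp1 was 1.82, with 19.6%. Low readings of both dimmer probe sets were not shown to be above background. Rpgrip1 (0.94) and Prom1 (0.98) were close to the median of the genes above the median signal (0.93), and Rpgr (1.52) was above it.

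**Figure D4:**
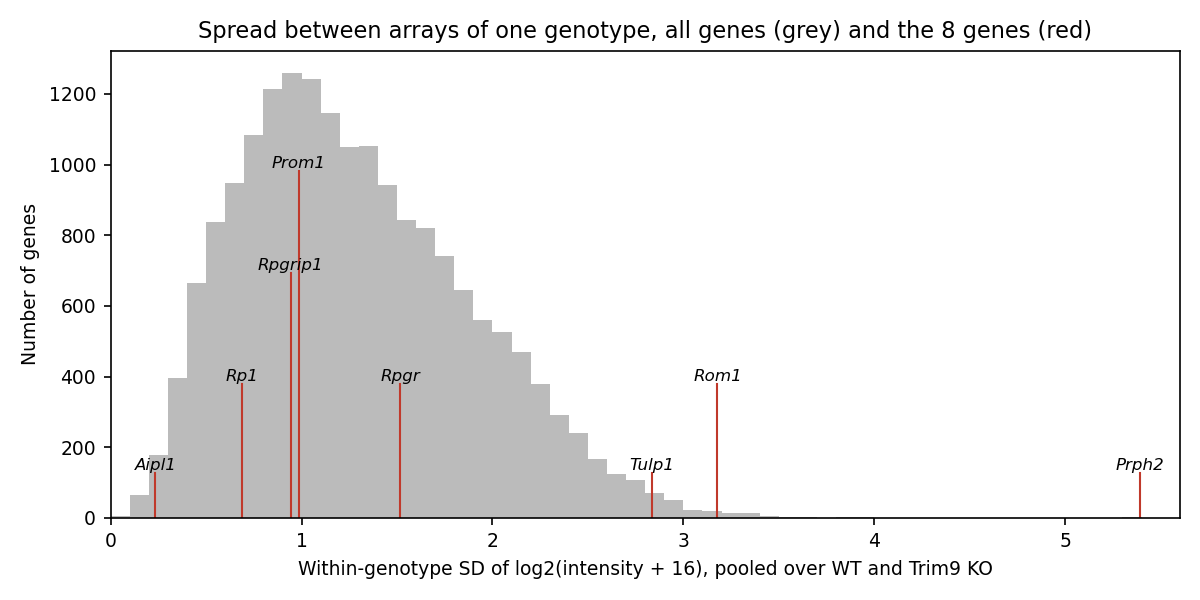
Number of genes (y axis) by the SD of log2(intensity + 16) within a genotype, pooled over WT and Trim9 KO (x axis), for all 18193 genes in grey, with the 8 genes as red lines of arbitrary height. Each gene is read by its brightest probe set. Prph2, at 5.39, lies beyond every other gene, and Aipl1, at 0.23, is near the lower end.

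The order of the arrays recurred in 2 forms. WT replicate 1 and Trim9 KO replicate 3 were the lowest pair for Prph2, Rom1 and Tulp1, an order found for 11.7% of all genes and 10.6% of those above the median signal. These arrays also had the lowest median intensities, 218 and 252, against 318 to 807 on the others. By their brightest probe sets, Rp1, Prom1, Aipl1 and Rpgrip1 were instead highest on WT replicate 1. So were 10.5% of all genes and 17.2% of those above the median signal. Of the 5 other probe sets of the 8 genes, 0 were highest on that array. These orders were picked after the values were seen and did not follow genotype. The 3' to 5' ratio of Actb was high on WT replicate 1 and Trim9 KO replicate 3 (19.8 and 85.7) but also on Trim9 KO replicate 2 (90.6), where Prph2, Rom1 and Tulp1 were not among the lowest. The 3' minus 5' difference of Gapdh was 6.28 to 8.10 (log2) on 5 arrays and -0.14 on WT replicate 3, the array on which Rom1, Tulp1 and the dimmer Aipl1 probe set were highest. The part of RNA quality or of the array medians in these orders was not tested.

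The same contrast was present within single genes. The brightest Aipl1 probe set was highest on WT replicate 1 (59009), whereas its other probe set was lowest there, at 11.4 against 182 and 5945 on WT replicates 2 and 3. On Trim9 KO replicates 1, 2 and 3 that probe set read 95.3, 39.5 and 29.0. Its low readings lay above only 8.34% to 19% of probe sets on WT replicate 1 and the KO arrays and were not shown to be above background, so that no fold between arrays is given. Its log2 fold change was -2.29 (standard error 1.64, exact permutation p = 0.5). Centred on their means, the Aipl1 probe sets differed from each other by 2.65 (root mean square difference of log2 intensity over the 6 arrays), while the dimmer Aipl1 probe set differed from Tulp1 by 0.65.

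Rp1 gave a similar picture, with 131927 on WT replicate 1 for the brightest probe set and 30.8 for the other. The dimmer Rp1 probe set read 831 and 418 on WT replicates 2 and 3 and 56.4, 449 and 232 on Trim9 KO replicates 1, 2 and 3. Its readings on WT replicate 1 and Trim9 KO replicate 1 lay above 18.9% and 7.81% of probe sets. They were not shown to be above background. Its log2 fold change of -0.35 (standard error 1.26) had the same sign as that of the brightest (-0.45). The 3 dimmer probe sets of Rpgrip1 had log2 fold changes of -1.16 (standard error 1.10), -0.53 (standard error 1.16) and -0.084 (standard error 1.07), opposite in sign to the brightest (0.29). The last of these lay above only 7.98% of probe sets on Trim9 KO replicate 1, a reading not shown to be above background. With the mean of all its probe sets, Rpgrip1 was at -0.37. Where on each transcript these probe sets lie was not known here.

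**Figure D5:**
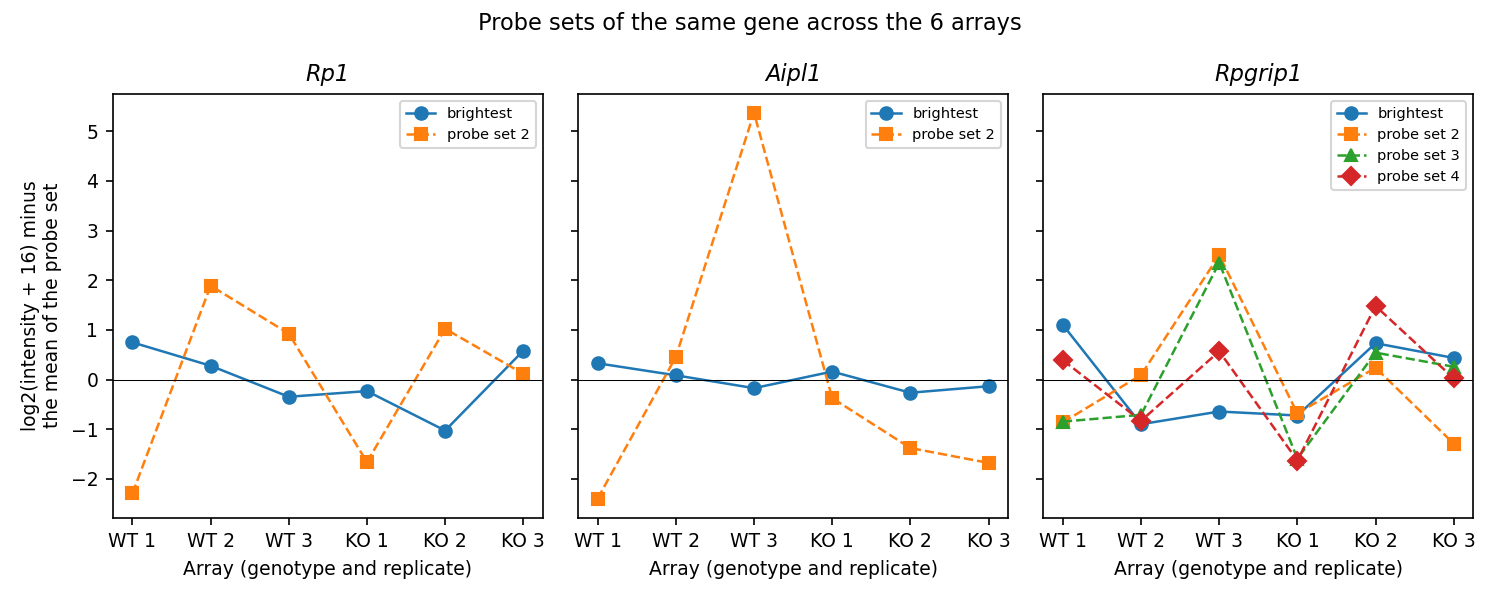
Log2(intensity + 16) minus the mean of the probe set (y axis) on each array (x axis) for the probe sets of Rp1, Aipl1 and Rpgrip1, with the brightest as a solid line. On WT replicate 1 the brightest Aipl1 and Rp1 probe sets are at their highest, while the other probe set of each gene is at its lowest. Those lowest readings were not shown to be above background.

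The sequence before the transcription start was set beside these patterns. Prph2, Rom1 and Tulp1 were lowest on the same 2 arrays, and the 250 bases before their starts are shown for that reason, from RefSeq on GRCm38.p6, on the strand of the gene, 5′ to 3′. Capitals mark the letters TAATCT, or AGATTA on the other strand, a form of the site bound by the photoreceptor homeobox factor CRX.
Prph2 (chr17:46910228-46910477, plus strand): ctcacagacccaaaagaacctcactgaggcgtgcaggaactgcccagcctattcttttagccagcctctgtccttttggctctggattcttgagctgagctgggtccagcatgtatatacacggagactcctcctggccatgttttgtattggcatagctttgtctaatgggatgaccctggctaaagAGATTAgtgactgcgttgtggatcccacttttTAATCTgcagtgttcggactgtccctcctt
Rom1 (chr19:8929357-8929606, minus strand): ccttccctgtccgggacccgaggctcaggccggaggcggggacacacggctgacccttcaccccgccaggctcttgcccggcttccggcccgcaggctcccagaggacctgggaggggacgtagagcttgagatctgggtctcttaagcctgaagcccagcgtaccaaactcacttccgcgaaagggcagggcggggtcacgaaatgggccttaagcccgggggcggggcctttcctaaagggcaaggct
Tulp1 (chr17:28365217-28365466, minus strand): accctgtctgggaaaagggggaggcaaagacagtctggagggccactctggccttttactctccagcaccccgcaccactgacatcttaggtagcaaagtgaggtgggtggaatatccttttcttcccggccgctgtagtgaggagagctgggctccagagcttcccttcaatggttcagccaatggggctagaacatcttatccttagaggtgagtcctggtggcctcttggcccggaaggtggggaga
Prph2 held these letters at 62 to 57 and at 30 to 25 bases before the start. In Rom1 and Tulp1 neither they nor TAATCC, the more usual form of the site, were present in the window. GC content was 49.6% for Prph2, 66.8% for Rom1 and 56.4% for Tulp1.

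TAATCC, read on both strands as TAATCC or GGATTA, was present for Aipl1 and Rpgrip1, whose brightest probe sets were highest on WT replicate 1. It was not present for Prom1, which was also highest there. The match is shown in capitals with only 10 bases on either side, since the whole of these windows, match included, lies within the annotated gene.
Aipl1 (chr11:72037547-72037572, minus strand): ccctctggtgGGATTAtctaggcttg
Rpgrip1 (chr14:52110865-52110890, plus strand): taaaaggcctGGATTAgtgtctcctc
It began 53 bases before a start within Aipl1 and 28 bases before a start within Rpgrip1, the starts that the promoter table gives, which are not the ends of the gene spans above. Of the 7 genes with a window in the table, 3 held TAATCC or TAATCT, against 12.8% of all 32851 windows of 250 bases (6.25% for TAATCC and 7.31% for TAATCT). Rp1 had no window. The units differ, since a gene counted if any of its windows matched, and Prom1 and Rpgr had more than a single window. The half-site TGCTGA of the rod factor NRL, which reads TCAGCA on the other strand, was present for Aipl1 and Rpgrip1, and in 16.1% of all windows. The matches to the 3 motifs did not overlap each other in these windows, and a match in letters is a description of the sequence, not a measured site of binding. Crx, the gene of the factor, had a log2 fold change of -0.35 (standard error 1.03).

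Other genes of the outer segment and of retinal dystrophy were read as 5 lists, which together held 61 measured genes outside the set. The KO mean was the lower of the pair for 38 of these and the higher for 23, with a median log2 fold change of -0.35, where 44.8% of all genes and 52.5% of genes above the median signal had a lower KO mean. In limma 0 of the 61 passed an adjusted p of 0.05, and none reached 0.05 before adjustment. For disc and outer segment proteins the KO mean was lower in 6 and higher in 5 of 11 measured genes (median -0.22). Examples were Pcare, an actin-linked factor of disc formation (-1.18, standard error 1.09), the lipid flippase Atp8a2 (1.09, standard error 1.02) and the guanylate cyclase Gucy2e (1.48, standard error 1.39). Gucy2e read 13.4, 135 and 194 in WT and 911, 685 and 14.9 in Trim9 KO replicates 1, 2 and 3. Its low readings were not shown to be above background. Rp1l1, the closest relative of Rp1, had a fold change of 1.05 (standard error 1.04), opposite in sign to Rp1, and its intensities of 90783, 13698 and 15194 in WT and 47492, 67662 and 52213 in Trim9 KO replicates 1, 2 and 3 overlapped between genotypes.

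Of 19 measured genes of the connecting cilium and of transport to the outer segment, 10 had a lower and 9 a higher mean (median -0.38). Averaged over the 19 genes, log2 intensity was 11.84 in the lowest WT animal and 11.77 in the highest Trim9 KO animal. The genotypes thus did not overlap, as for the averages of several cell type lists below, and the difference was not tested. Singly, 8.24% of all genes did not overlap, and no such share was obtained for averages of lists. Ttc8, a subunit of the BBSome that carries cargo in cilia, was the 1 gene of all 5 lists whose KO arrays all lay below the WT arrays, which 2.89% of all genes did. Its intensities were 14853, 12389 and 9774 in WT and 6268, 4866 and 1274 in Trim9 KO replicates 1, 2 and 3, a log2 fold change of -1.84 (standard error 0.99, exact permutation p = 0.1, limma adjusted p = 0.999). The lipid-binding carriers Unc119 and Pde6d were at -1.67 (standard error 1.40) and -1.05 (standard error 0.96), and Whrn, of the periciliary membrane, at 0.92 (standard error 0.94). Their genotypes overlapped.

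The phosphodiesterase subunits that Aipl1 serves, with the chaperone Hsp90aa1, gave 4 genes with a lower and 2 with a higher mean (median -0.47). Pde6g was at -0.97 (standard error 1.30), Pde6a at -0.80 (standard error 0.96), Pde6b at -0.55 (standard error 1.22) and Hsp90aa1 at -0.38 (standard error 0.97). Pde6g, the inhibitory subunit of the rod enzyme, read 5777, 73957 and 111559 in WT and 59676, 14196 and 7451 in Trim9 KO replicates 1, 2 and 3, with WT replicate 1 and Trim9 KO replicate 3 again the lowest.

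Relatives of the set gave 4 lower and 1 higher mean among 5 measured genes (median -0.33). Tub, the founder of the tubby family, was at -0.70 (standard error 1.11), Tulp3 at -0.63 (standard error 1.18) and Prom2 at -0.33 (standard error 1.43). The lowest readings of Tulp3 (54.0 on WT replicate 2) and Prom2 (28.7 on WT replicate 3) were not shown to be above background. Of 21 other retinal dystrophy genes, 14 had a lower and 7 a higher mean (median -0.35). The fatty acid elongase Elovl4 was at -2.40 (standard error 1.34), the splicing factors Prpf8 and Prpf3 at -1.81 (standard error 1.29) and -1.07 (standard error 1.06), and Rbp3, which carries retinoids between photoreceptors and pigment epithelium, at -1.21 (standard error 0.98).

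Markers of other cells were measured on the same arrays, and their counts are to be read against the 44.8% of all genes with a lower KO mean and the 8.24% without overlap. Ranges are those of the average of a list on each array. The mean log2 intensity of 6 rod markers was 15.7 to 16.8 in WT and 15.2 to 16.6 in Trim9 KO retinas, and 6 of 6 had a lower KO mean. Cone markers (12.2 to 13.4 in WT, 11.6 to 12.2 in KO, 5 of 6 lower) and Müller glia markers (13.6 to 14.6 in WT, 12.4 to 13.4 in KO, 4 of 5 lower) did not overlap between genotypes as averages, although each single marker did. For 6 pigment epithelium markers it was 10.1 to 10.5 in WT and 10.5 to 11.4 in Trim9 KO, where the averages did not overlap but each single marker did, and 5 of 6 had a higher KO mean. The averages of 3 endothelial markers (7.55 to 8.23 in WT, 8.54 to 9.26 in KO) and 2 astrocyte markers, Gfap and Pdgfra (8.69 to 10.2 in WT, 10.8 to 11.5 in KO), likewise did not overlap, with 3 of 3 and 2 of 2 means higher in KO. Singly, 1 of the 3 endothelial and both astrocyte markers did not overlap. Lens markers ranged from 5.49 to 8.08 in WT and 6.67 to 7.80 in KO, and the ranges of microglia markers were 7.66 to 9.15 and 7.77 to 9.17. The averages of bipolar, amacrine, horizontal, ganglion cell and blood markers overlapped, with a lower KO mean in 2 of 4, 4 of 5, 3 of 4, 2 of 5 and 0 of 2. Among the ganglion cell markers, all KO arrays lay below the WT arrays for the neurofilament gene Nefm (log2 fold change -3.55, standard error 1.19) and above them for Pou4f1, a transcription factor (1.73, standard error 0.98). Across the lists no marker passed limma after adjustment over all probe sets, and the part of these cells in the values of the 8 genes was not tested.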

How the data were processed

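Adult retina RNA of 3 WT and 3 Trim9 KO mice was hybridized to Affymetrix mouse genome arrays, 1 per animal. The deposited intensities are linear and were scaled by the authors on each array to the same mean after the lowest and highest 2% of probe sets were trimmed. The submitters' processing notes name MAS5 without a version, whereas RMA is given in the methods of the study. RMA output would have equal distributions on a log2 scale, which these values do not show, and no detection calls were used. Groups were taken from sample titles, and 0 columns lacked a sample.

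A pseudocount of 16 was added before log2 was taken, and 45037 probe sets, without 64 controls, entered limma 3.58.1 in R 4.3.3 (lmFit, eBayes), with Benjamini-Hochberg adjustment over all of them and a threshold of 0.05. No filter and no block were used. The exact permutation tests were two-sided over all 20 splits. A gene was read by its brightest probe set naming 1 gene. Simulated data with known changes were used to test the fit. Gene positions and promoters are from RefSeq (GRCm38.p6), of which 250 bases before each start were searched with Python 3.11.15. Figures used matplotlib 3.10.9 and pandas 2.3.3.

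The members and lists were chosen with earlier results of these data known. Named genes were the 8 members, Trim9, in each of 5 lists the 4 genes with the largest limma statistic, and the 5 genes whose centred values lay nearest the mean of the members; the other genes printed (Crx, Guca1a, Fscn2, Cdhr1, Prcd and the cell type markers) were added after their values were seen. Alternatives were quantile normalization, equal medians, a filter on low values, a replicate block, limma's trend with a robust prior, array weights, averaging over probe sets, other pseudocounts (1 and 64), sex as a covariate, and each array left out. The number of arrays limits the precision.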

Additional observations from a re-analysis of the deposited data

How the results depend on the processing

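Across 16 alternative settings, 0 of the 8 genes passed the adjusted threshold in any. A block, sex, limma's trend or the filter on low values could not move a fold change. Nor could averaging over probe sets for the 5 genes with 1 probe set. Of 128 fold changes of single genes, 118 kept their sign. Rp1, Aipl1 and Rpgr kept theirs throughout but not their size: with Trim9 KO replicate 2 left out Rp1 was at -0.052 and Aipl1 at -0.067, with Trim9 KO replicate 3 left out Rp1 was at -0.86, with WT replicate 1 left out Rp1 was at -0.19, Aipl1 at -0.036 and Rpgr at 2.41, with WT replicate 2 left out Rpgr was at 0.44, and with WT replicate 3 left out Rp1 was at -0.74 and Aipl1 at -0.29. Trim9 KO replicate 1 left out gave -0.28 for Aipl1, and the mean of its probe sets -1.22. Rp1 was at -0.87 after quantile normalization. The signs that turned were, without 1 array, those of Prph2 (-2.48 without WT replicate 1, -2.07 without Trim9 KO replicate 1), Rom1 (0.37 without WT replicate 3, 0.076 without Trim9 KO replicate 3), Prom1 (0.43 without WT replicate 1), Tulp1 (0.47 without WT replicate 3) and Rpgrip1 (-0.081 without WT replicate 2). With an array left out, Prph2 ranged from -2.48 to 3.22, Prom1 from -0.92 to 0.43 and Rpgrip1 from -0.081 to 0.92. Prom1 was at 0.077 with array weights, and Rpgrip1 at -0.027 with equal array medians and -0.37 with the mean of its probe sets. Without WT replicate 1, Rom1 (-3.30) and Tulp1 (-3.45) fell under 0.05 before adjustment in limma (adjusted p = 0.982 for both). The cause of these changes was not tested.

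The median log2 fold change of the 8 genes was -0.23, -0.72 after quantile normalization and -0.55 with equal array medians, where the median of all probe sets moved from 0.18 to 0.015 and -0.14. When an array was left out it ranged from -0.37 to 0.21, turning to 0.21 without WT replicate 3, and the number of genes with a lower KO mean ranged from 3 to 6 (3 without WT replicate 3), against 5 with all arrays. With the replicate number as a block 0 genes passed, and the median, -0.23, cannot move in this balanced design. Arrays of the same number did not deviate together (correlation of deviations from the group mean -0.23, -0.081 and 0.033 for replicates 1, 2 and 3), so that the block was not read as a pairing. Between unlike numbers this correlation ranged from -0.29 (WT replicate 2 with Trim9 KO replicate 3) to 0.28 (WT replicate 1 with Trim9 KO replicate 3). It was 0.26 for WT replicate 2 with Trim9 KO replicate 1.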

Other observations

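Among 9088 genes above the median signal, 5 were picked whose centred log2 intensities over the 6 arrays lay nearest the mean of the 8 genes. They were Tmem200c, Etfb, a subunit of the electron transfer flavoprotein, and the histone methyltransferase Kmt2a. The others were the fatty acid amide hydrolase Faah and the zinc finger gene Zfp219. The centred log2 intensities of these 5 genes differed from that mean by 0.12 to 0.16 (root mean square over 6 arrays). The 8 genes themselves differed from it by 0.80 (Aipl1) to 3.74 (Prph2). The 5 genes were picked as the nearest of 9088, so their smaller distance follows from the choice. The mean profile was lowest on WT replicate 1 (-1.01) and Trim9 KO replicate 3 (-0.98) and highest on WT replicate 3 (0.68). Prph2 weighed heavily on it, at -5.94 on WT replicate 1 and -5.46 on Trim9 KO replicate 3. The median of the 8 centred values was instead highest on WT replicate 1 (0.54) and lowest on WT replicate 3 (-0.26). On WT replicate 1, 5 of the 8 genes were above their own mean.

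Among the 61 listed genes outside the set, WT replicate 1 and Trim9 KO replicate 3 were the lowest arrays for 14 (23%), against 11.7% of all genes. They included the rod phosphodiesterase subunits Pde6b and Pde6g, the cyclase activator Guca1a, the cyclase Gucy2e, Unc119 and the actin bundler Fscn2. WT replicate 1 was the highest array for 12 (19.7%), against 10.5% of all genes and 17.2% of those above the median signal. Among the 12 were Rp1l1, Cdhr1, a cadherin of nascent discs, Prcd, a small disc protein, and Crx. These counts were made after the pattern was seen and carry no test.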
